A study of Mus musculus with 48 samples.

Results

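Intron RNA of Bmal1 knockdown cells was examined for patterns that repeat every 12 h. The 12 libraries described were of total RNA from the shBmal1 line, out of 48 libraries in the series. NIH 3T3 is an established line of mouse embryonic fibroblasts, and both lines studied were stable derivatives of it. The shBmal1 line carried a hairpin against Bmal1 (Arntl in the files), and the shCTRL line carried a control hairpin. All cells of both lines had been shocked with 50% horse serum for 2 h, a treatment that aligns their clocks, and were collected every 2 h from 24 to 46 h. Each line gave 12 libraries of total RNA and 12 of newly made RNA labelled with 4-thiouridine (4sU), with 1 library per line, RNA type and time point. The labels name 1 line per hairpin and no replicate cultures, so a p-value here measures the scatter of single libraries around a fitted curve, and an effect of the hairpin cannot be told apart from a difference between 2 derived lines.

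BMAL1 is the partner of CLOCK in the transcription factor that drives the 24-h clock, and mice and cells without it lose most daily rhythms. Besides daily rhythms, some genes have been described with 2 peaks a day, and in mouse liver such 12-h genes include those of protein folding in the endoplasmic reticulum and of RNA handling, with XBP1 as a known regulator. Introns are mostly removed soon after transcription, so intron RNA is often read as precursor RNA, that is as recent synthesis. Exon RNA also carries the stability of the finished message.

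Intron level was deposited as RPKM, reads per kilobase of intron scaled to the library's total. Of 11313 genes in the intron table, 9982 had a mean of at least 0.1 RPKM over the 12 shBmal1 libraries and were fitted. The genes nearest that limit were Zfp65 at 0.100013 RPKM, just inside, and Apool at 0.099988 RPKM, just outside. Each gene's log2(RPKM + 0.02), after the libraries were brought to a common scale, was fitted with a 12-h and a 24-h cosine, and limma's moderated F test was used for the 12-h terms. The amplitude is the height of the fitted 12-h curve above its mean in log2 units, the fold is peak over trough, and a peak at 26.5 h recurs 12 h later. Steps in the RPKM values gave back whole reads. By the steps of their exon values, the shBmal1 libraries held between 50977879 and 69829031 reads. The highest total is that of the 32-h library, the one library of 24 whose intron steps gave another most frequent total. By the same measure the shCTRL libraries held between 53931845 and 76260143. The median gene had 618 intron reads per shBmal1 library and 668 per shCTRL library. Exon RNA of Arntl, the gene targeted, averaged 3.86 ± 0.742 RPKM in shBmal1 libraries and 9.01 ± 5.93 RPKM in shCTRL libraries (SD over time points, n = 12 each), with ranges of 2.36 to 4.999 RPKM in shBmal1 and 1.29 to 17.2 RPKM in shCTRL. Of the fibroblast markers, 9 of 11 were in the tables, with summed exon levels of 4180 to 4634 RPKM in shBmal1 libraries and 4025 to 4746 RPKM in shCTRL libraries. Of 8 leukocyte markers 4 were listed, without Ptprc, Cd3e, Cd79a or Adgre1, and their sum was 18.2 to 26.05 RPKM in shBmal1 libraries and 13.6 to 21.003 RPKM in shCTRL libraries. Of 6 adipocyte markers 2 were listed, at 5.75 to 10.3 RPKM in shBmal1 libraries and 6.89 to 9.36 RPKM in shCTRL libraries. Of the endothelial markers only Cdh5 was listed, below 1 RPKM in both lines, and of the neural markers none. Krt14, the only epithelial marker listed, was at 7.64 to 13.6 RPKM in shBmal1 libraries and 2.09 to 4.32 RPKM in shCTRL libraries.

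No gene's intron RNA passed as a 12-h pattern in the knockdown line. Of 9982 genes, 0 (0%) reached an adjusted p below 0.05 in limma's test with Benjamini-Hochberg adjustment, and the lowest adjusted p was 0.172. A gene-wise F test also gave 0. At an unadjusted p below 0.05 there were 2007 genes (20.1%) with limma and 1802 with the gene-wise test. In shCTRL introns 0 of 10011 genes passed, and 510 (5.09%) had an unadjusted p below 0.05. The typical curve was shallow. The median amplitude was 0.11 log2 units in shBmal1 introns and 0.07 in shCTRL introns, and 90% of genes lay below 0.22 in shBmal1 and below 0.16 in shCTRL. The 2007 genes are described below as a group with low unadjusted p, not as rhythmic genes.

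In shBmal1 total introns the 12-h period had the highest mean share of the variance over time. A set of 12 time points can be divided exactly into periods of 24, 12, 8, 6, 4.8 and 4 h. Averaged over genes, 26.6% of the variance of shBmal1 introns was at 12 h and 23.8% at 24 h, with 10.9 to 14.4% at each shorter period. The 4-h period rests on 1 term and each longer period on 2, so the 4-h share is not directly comparable with the others. In shCTRL introns 17.9% was at 12 h, 25.6% at 24 h and 20.6% at 6 h. A straight line over the same time points has 62.6% of its variance at 24 h and 16.8% at 12 h, so a steady drift also fills part of the 12-h share.

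**Figure D1:**
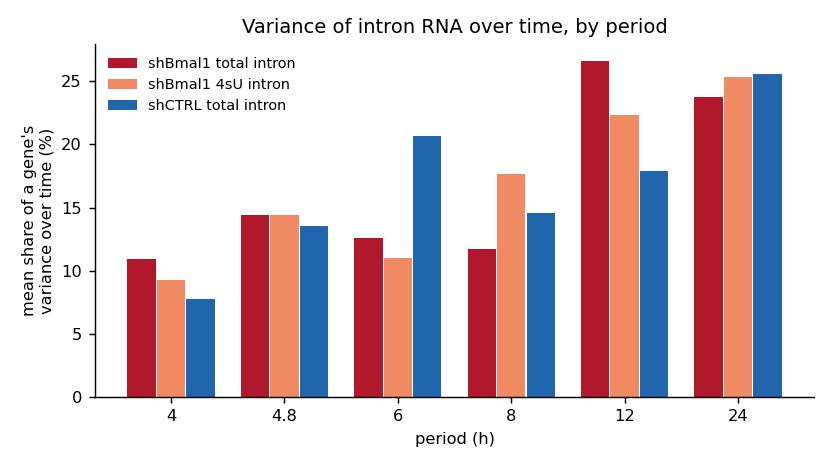
Mean share of each gene's variance over time (percent) at each period (h), for intron RNA in shBmal1 total, shBmal1 4sU and shCTRL total libraries. In shBmal1 total introns the 12-h bar is the tallest at 26.6%, against 17.9% in shCTRL total introns. The 4-h bars rest on 1 term and all other bars on 2.

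Random orders of the time points were used to see how often such values come without a 12-h order. Among 100 random orders of the shBmal1 libraries, the number of genes at an unadjusted p below 0.05 had a median of 313.5 and ran between 106 and 3394. In 3 of the 100 orders it was at least 2007 (permutation p = 0.0396, one-sided). Calls at an adjusted p below 0.05 came up in 5 of the 100 orders, with 1141 genes in the order that gave the most. For the mean share of variance at 12 h, 100000 random orders had a median of 17.2% and a 95th percentile of 27.8%, and the permutation p of the observed 26.6% was 0.0699 (one-sided). The count of genes thus lay above most random orders, while the mean share did not reach 0.05. A random order removes slow drift as well as any 12-h order, so neither p separates these. With a straight line for time added to the fit, the 2007 genes became 691 (6.92%), and after a line was taken out of each gene the mean share was 23.3% (permutation p = 0.120). A straight line overlaps the 12-h and 24-h terms, so it would also take calls from a true pattern. Lower counts with a line, here and below, therefore do not separate drift from a repeating pattern.

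Single time points also carried much of the count. With 1 time point left out in turn, the number of genes at an unadjusted p below 0.05 lay between 1071 without 38 h and 2644 without 32 h. It was 1472 without 34 h and 1511 without 46 h. At an adjusted p below 0.05, 1 gene passed without 40 h and 0 passed in each of the other 11 fits. That gene was Gm37592, with an amplitude of 1.07 and an adjusted p of 0.0246 in limma's test without 40 h. Its adjusted p with all 12 time points was 0.173.

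**Figure D2:**
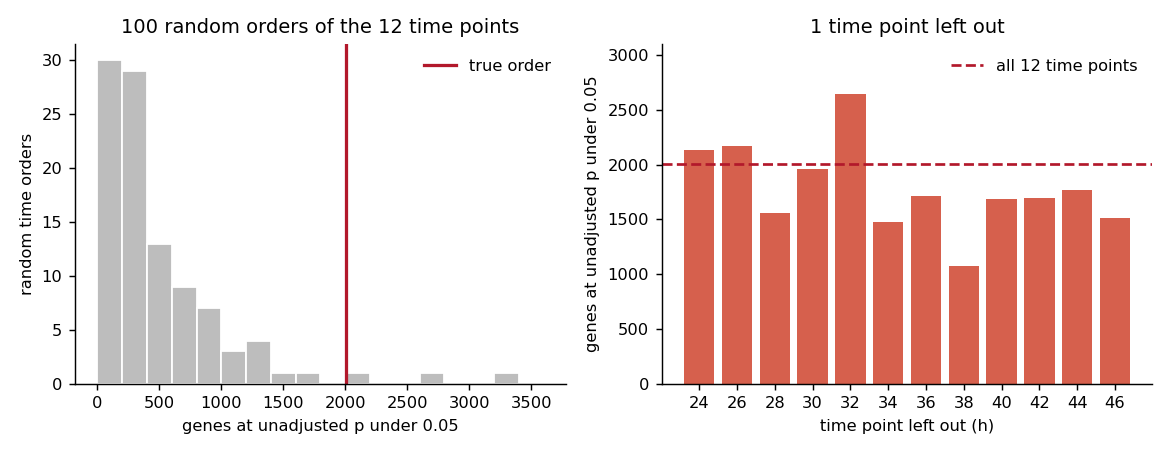
Left, number of genes at unadjusted p under 0.05 in 100 random orders of the 12 shBmal1 time points (histogram), with the count of 2007 in the true order as a line. Right, the same count with each time point (h) left out, lowest at 1071 without 38 h; the dashed line is the count with all 12.

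After scaling, the fitted peaks grouped around 2 phases, and the split between them depended on the scaling. Among the 2007 genes, 1148 (57.2%) peaked between 24 and 30 h with a median of 26.5 h, and 859 (42.8%) peaked between 30 and 36 h with a median of 32.5 h. The windows from 26 to 28 h and from 32 to 34 h held 1549 of the 2007 genes (77.2%), against 57.2% of all genes fitted. On RPKM as deposited, 2458 genes had an unadjusted p below 0.05, of which 443 (18.02%) peaked early and 2015 (81.98%) late. Median-ratio scaling sets the middle gene of each library to no change, and its factors for the shBmal1 libraries lay between 0.934 at 26 h and 1.09 at 34 h. Early and late peaks are therefore relative to the middle gene. The median amplitude was 0.20 in the early group and 0.18 in the late group, equal to folds of 1.33 and 1.29. Both 12-h cycles could be fitted alone. Over all genes, the median amplitude was 0.14 log2 units over 24 to 34 h and 0.11 over 36 to 46 h. The peaks of both cycles lay within 2 h of each other in 57.3% of genes in shBmal1 introns and 31.8% in shCTRL introns. The share was 54.2% in shBmal1 4sU introns and 60.9% in shBmal1 exons. Each cycle was fitted with no term for drift, and a steady drift would give like peaks in both cycles. These shares therefore do not separate drift from a repeating pattern, and the share expected from unrelated peaks was not computed.

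The early and late groups differed in gene size and level. Genomic span, the distance from a gene's first to last annotated base, was known for 9480 of the 9982 genes (94.97%) from RefSeq on GRCm38.p6. The median span was 8.39 kb in the early group, 56.6 kb in the late group and 21.3 kb over all genes. Genes under 20 kb made up 83.8% of the early group and 16.5% of the late group. The median of the mean intron level was 1.66 RPKM in the early group and 0.290 RPKM in the late group. Median promoter GC content was 60.3% in the early group, 64.3% in the late group and 61.3% over all genes. All genes were also divided by span into 5 equal groups. In the group of shortest genes, up to 7.95 kb, 541 of 1898 had an unadjusted p below 0.05, with 516 peaking early and 25 late. In the group of longest genes, from 57.2 kb up, there were 433 of 1896, with 21 peaking early and 412 late. The split by span was also seen without 34 h, with medians of 8.15 and 48.2 kb in the early and late groups, and without 38 h, with 7.49 and 47.6 kb. On RPKM as deposited the medians were 6.38 and 50.4 kb.

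**Figure D3:**
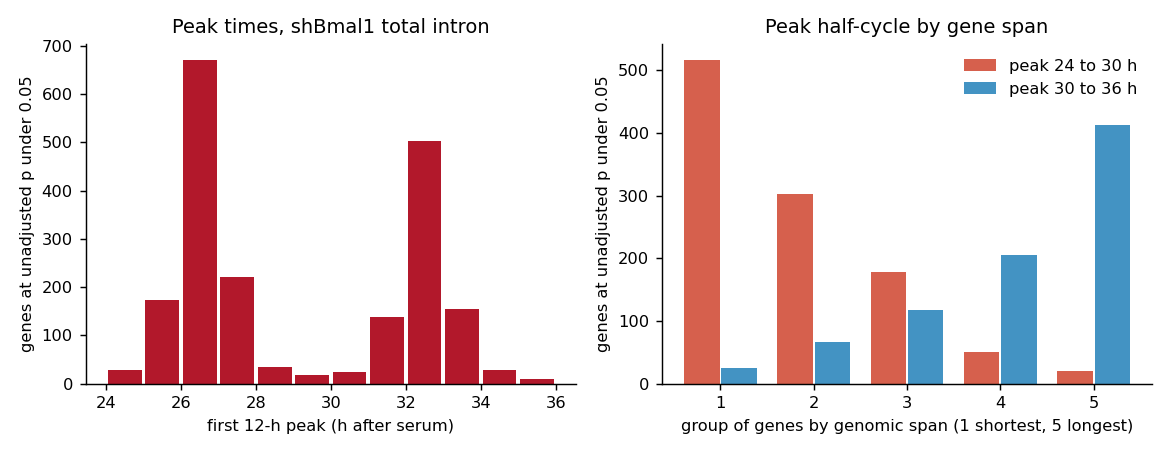
Left, number of the 2007 genes by hour of their first fitted 12-h peak (h after serum) in shBmal1 total introns. Right, number of these genes with all genes divided into 5 equal groups by genomic span, split by peak between 24 and 30 h or between 30 and 36 h; the shortest group has 516 early and 25 late, the longest 21 early and 412 late.

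The contrast between short and long genes moved in whole libraries. For each library the median deviation of the shortest group from each gene's own mean, minus that of the longest group, gave 1 value in log2 units. In shBmal1 total introns it was 0.26, 0.20, 0.32, -0.02, -0.02 and -0.41 at 24 to 34 h and 0.01, 0.17, -0.01, -0.13, -0.12 and -0.18 at 36 to 46 h. Short genes were thus relatively high at 24 to 28 h and again at 38 h, and long genes were relatively high at 34 h. Of the variance of this measure, 54.9% was at 12 h. The 4sU introns of the same line had values of -0.52 at 34 h and 0.37 at 38 h, and shBmal1 exons of total RNA had -0.41 and 0.14. At 24, 26 and 28 h the values were 0.40, -0.005 and 0.07 in 4sU introns and 0.25, 0.03 and 0.32 in exons. The share of variance at 12 h was 37.7% in 4sU introns and 43.2% in exons. In shCTRL total introns the measure stayed between -0.12 and 0.05 at 11 time points and was 0.46 at 30 h, with 17.4% of its variance at 12 h. When each gene was compared with genes of like span in the same library, 1308 of 9480 genes (13.8%) had an unadjusted p below 0.05 in the shBmal1 introns, against 1898 of the same 9480 (20.02%) before, and 589 (6.21%) with a straight line for time as well. Beyond this correction, how far the contrast between short and long genes enters the level of a single gene was not tested.

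The clearest single genes were taken as the 20 with the lowest p among genes with a mean of at least 0.5 RPKM. All 20 had an adjusted p of 0.172 in limma's test, so none passed. Their amplitudes lay between 0.22 and 0.48, equal to folds of 1.35 to 1.96. Of the 20, 17 peaked early and 3 late. In shBmal1 4sU introns 7 of the 20 had an unadjusted p below 0.05 in the same test, against 10.8% over all genes. The early genes were Psmg3 (a chaperone of proteasome assembly), Grwd1 and Nop2 (ribosome assembly and ribosomal RNA methylation), Mrpl54 (mitochondrial ribosome), Pusl1, Nubp2 (iron-sulphur cluster assembly), Ufc1 (the conjugating enzyme for UFM1), Alkbh4, Ap1s1 (a clathrin adaptor subunit), Pcgf1 (a Polycomb protein), Recql4 (a DNA helicase), Gpx1 (glutathione peroxidase), Lrfn4, Zfp593, Gm1673, Gm28513 and 2810025M15Rik. The 3 late genes were Rab5a, Foxo3 and Pdia5. The counting error of these genes was 0.02 to 0.24 log2 units per library. It was greatest in Zfp593, with a mean of 36.4 reads per library. Of the 19 genes with a RefSeq entry, 8 overlapped another annotated gene (Recql4, Zfp593, Pusl1, Lrfn4, Nubp2, Rab5a, Foxo3 and 2810025M15Rik). The sources used here do not state whether reads were counted by strand, so reads of overlapping genes may be shared.

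Psmg3 (chromosome 5, 139823613 to 139826894, GRCm38.p6) had intron levels of 1.18, 1.16, 1.35, 1.17, 0.963 and 1.04 RPKM at 24 to 34 h and 0.980, 1.23, 1.24, 1.09, 0.937 and 0.950 RPKM at 36 to 46 h in shBmal1 libraries. It was highest at 28 h and again at 38 and 40 h. The shCTRL libraries lay between 0.831 and 1.19 RPKM with a median of 0.970, and the ranges of the lines overlapped. The amplitude was 0.26 ± 0.04 (SE, n = 12) in shBmal1, or 0.20 on RPKM as deposited, and 0.08 in shCTRL.

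Gpx1 (chromosome 9, 108339080 to 108340342) had 36.4, 36.7, 38.03, 28.6, 26.6 and 24.3 RPKM at 24 to 34 h and 28.4, 31.3, 27.2, 28.6, 23.1 and 24.7 RPKM at 36 to 46 h in shBmal1 libraries, against 18.2 to 25.9 RPKM (median 22.2) in shCTRL libraries. Its second high point, at 38 h, was lower than the first. The amplitude was 0.32 ± 0.05 (SE, n = 12) with a peak at 26.5 h in shBmal1, and 0.13 with a peak at 27.5 h in shCTRL. In shBmal1 4sU introns the mean of Gpx1 was 8.83 RPKM, against 29.5 RPKM in shBmal1 total introns. The unadjusted p of its 12-h terms in 4sU introns was 0.663 in limma's test.

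Recql4 (chromosome 15, 76703553 to 76710616) had 1.25, 1.14, 1.23, 1.06, 0.784 and 0.764 RPKM at 24 to 34 h and 0.875, 0.965, 0.608, 0.467, 0.560 and 0.641 RPKM at 36 to 46 h in shBmal1 libraries. The second high point, 0.965 at 38 h, lay below the 4 earliest values. In shCTRL libraries the range was 0.406 to 0.652 RPKM with a median of 0.495. The amplitude was 0.43 ± 0.07 (SE, n = 12) in shBmal1 and 0.10 in shCTRL.

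The late genes showed the reverse order. Rab5a, a GTPase of early endosomes (chromosome 17, 53479234 to 53507678), had 0.415, 0.367, 0.418, 0.524, 0.591 and 0.75 RPKM at 24 to 34 h and 0.615, 0.478, 0.569, 0.675, 0.660 and 0.622 RPKM at 36 to 46 h in shBmal1 libraries, against 0.476 to 0.733 RPKM (median 0.653) in shCTRL libraries. It was lowest at 26 h, highest at 34 h, and low again at 38 h. Foxo3, a stress-responsive forkhead transcription factor (chromosome 10, 42181845 to 42276695), had 0.522, 0.494, 0.525, 0.650, 0.7002 and 0.826 RPKM at 24 to 34 h and 0.623, 0.547, 0.627, 0.787, 0.778 and 0.813 RPKM at 36 to 46 h in shBmal1 libraries. In shCTRL libraries Foxo3 lay between 0.678 and 1.02 RPKM with a median of 0.906. Pdia5, a protein disulphide isomerase of the endoplasmic reticulum, lay between 0.618 RPKM at 26 h and 1.08 RPKM at 34 h in shBmal1 libraries and between 0.640 and 0.951 RPKM in shCTRL libraries. The amplitudes in shBmal1 were 0.24 for each of the 3 genes, with standard errors of 0.04, and 0.31, 0.30 and 0.30 for Rab5a, Foxo3 and Pdia5 on RPKM as deposited. The peaks were at 32.5 h for Rab5a, 32.3 h for Foxo3 and 31.96 h for Pdia5.

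**Figure D4:**
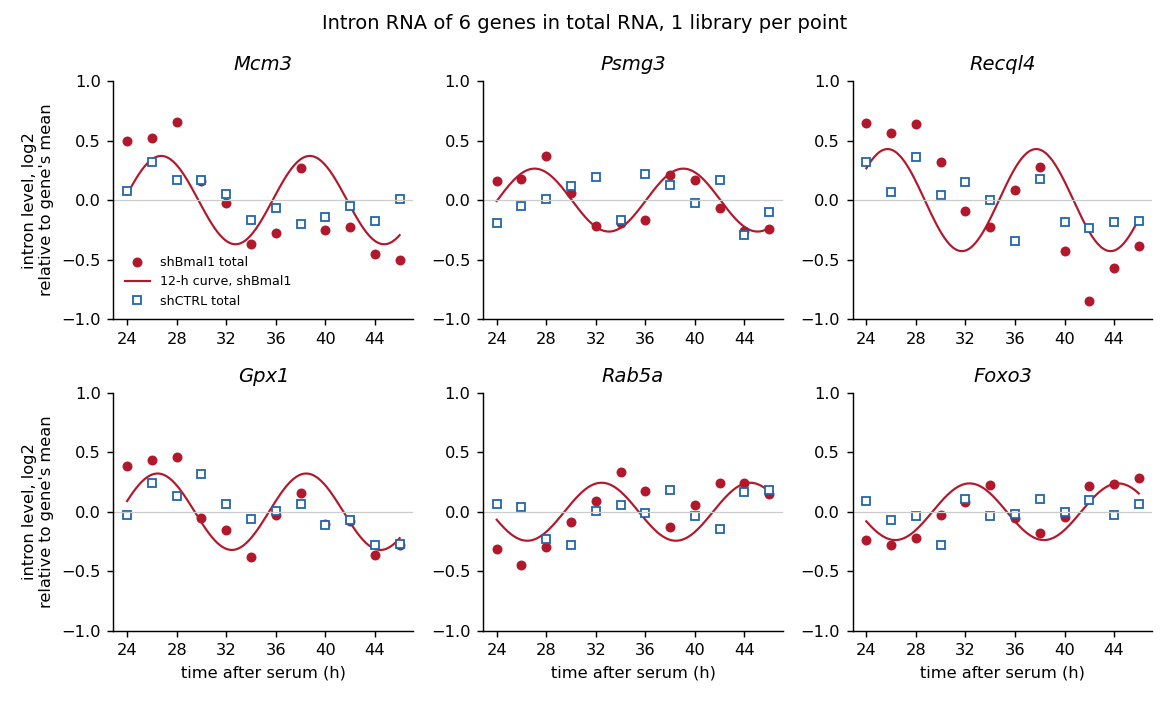
Intron level (log2, relative to each gene's mean in its line) against time after serum (h) for 6 genes, with 1 library per point; filled circles are shBmal1 total, open squares shCTRL total, and the curve is the 12-h component of the shBmal1 fit. Mcm3, Psmg3, Recql4 and Gpx1 have early peaks, and Rab5a and Foxo3 have peaks near 32 h; values of Mcm3, Recql4 and Gpx1 at 24 to 28 h lie above those at 38 h.

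Promoters of 2 early and 2 late genes are given because they represent the 2 opposite peak groups. The sequences are from RefSeq on GRCm38.p6 and run from 250 bases before to 50 bases after the annotated start, on the gene's strand. Capitals mark matches on either strand to the E-box CACGTG bound by CLOCK and BMAL1, the GC box GGGCGG, the CCAAT box CCAAT, or the ATF/CRE core TGACGT. Both strands' TGACGT matches overlap within the TGACGTCA of Rab5a.
Psmg3, chr5:139826845-139827144, minus strand: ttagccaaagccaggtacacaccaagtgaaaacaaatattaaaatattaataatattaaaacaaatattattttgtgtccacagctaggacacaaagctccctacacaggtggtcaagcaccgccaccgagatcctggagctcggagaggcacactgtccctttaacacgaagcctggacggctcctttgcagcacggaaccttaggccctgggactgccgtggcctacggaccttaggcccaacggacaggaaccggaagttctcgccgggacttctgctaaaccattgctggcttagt
Gpx1, chr9:108338830-108339129, plus strand: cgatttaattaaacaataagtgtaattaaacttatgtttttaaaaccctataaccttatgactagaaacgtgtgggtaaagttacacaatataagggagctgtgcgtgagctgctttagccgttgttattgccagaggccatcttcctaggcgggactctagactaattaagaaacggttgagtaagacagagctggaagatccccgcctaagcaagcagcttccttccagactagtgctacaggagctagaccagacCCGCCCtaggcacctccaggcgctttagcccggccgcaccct
Rab5a, chr17:53478984-53479283, plus strand: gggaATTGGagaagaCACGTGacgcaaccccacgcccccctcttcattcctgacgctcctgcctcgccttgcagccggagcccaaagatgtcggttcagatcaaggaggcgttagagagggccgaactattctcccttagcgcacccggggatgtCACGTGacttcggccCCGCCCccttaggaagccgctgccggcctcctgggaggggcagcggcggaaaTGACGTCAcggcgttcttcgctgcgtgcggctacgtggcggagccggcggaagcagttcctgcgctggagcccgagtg
Foxo3, chr10:42276646-42276945, minus strand: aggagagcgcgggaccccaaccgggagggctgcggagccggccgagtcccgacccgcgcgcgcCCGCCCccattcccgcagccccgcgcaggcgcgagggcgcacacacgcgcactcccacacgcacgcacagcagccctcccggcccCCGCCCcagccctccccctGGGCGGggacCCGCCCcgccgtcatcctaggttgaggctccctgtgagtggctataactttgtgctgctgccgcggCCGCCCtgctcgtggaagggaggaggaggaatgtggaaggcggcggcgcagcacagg
The Psmg3 window held none of these letters. The Rab5a window held 2 E-boxes, 1 GC box, 1 CCAAT box and 2 TGACGT matches, and the Foxo3 window held 5 GC boxes. The E-box was present in 13.5% of 879 early promoters, 12.6% of 690 late promoters, 11.1% of 7678 promoters of fitted genes and 7.24% of 27025 promoters in the table. For the GC box the shares were 64.5%, 70.7%, 67.3% and 35.9% in the same order. For the CCAAT box they were 40.05%, 37.97%, 39.78% and 38.02%, and for TGACGT 13.7%, 13.5%, 13.2% and 7.59%. Matched letters are a description of these windows and show no binding.

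The lists of DNA replication and of mitosis had the highest shares of genes with a low unadjusted p. Of 24 fitted genes of the G1/S list, 15 (62.5%) had an unadjusted p below 0.05, against the 20.1% over all genes, and the 15 peaks lay between 24.96 and 27.59 h. Of 25 fitted genes of the G2/M list there were 12 (48%), with peaks between 25.4 and 26.5 h. In each list 0 genes passed at an adjusted p below 0.05 in limma's test. Median span was 15.5 kb in the G1/S list and 21.8 kb in the G2/M list. In shCTRL introns 2 of 24 and 7 of 25 had an unadjusted p below 0.05, against 5.09% over all genes. In shBmal1 4sU introns the counts were 12 of 24 and 12 of 25, against 10.8% over all genes.

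The members of these lists had lower medians at later times. The median deviation of G1/S genes from their own means in shBmal1 introns was 0.49, 0.51, 0.38, 0.26, 0.05 and -0.19 at 24 to 34 h and -0.08, -0.00, -0.27, -0.29, -0.37 and -0.41 at 36 to 46 h. The value at 38 h stood above both of its neighbours and below each value at 24 to 32 h. In shCTRL introns the same medians lay between 0.22 at 26 h and -0.14 at 38 h. The G2/M medians in shBmal1 introns were 0.49 at 24 h, 0.00 at 38 h and -0.67 at 46 h, and in shCTRL introns they lay between 0.30 at 26 h and -0.43 at 46 h. With a straight line for time in the fit, 4 of 24 G1/S genes and 0 of 25 G2/M genes had an unadjusted p below 0.05, against 6.92% over all genes. After the correction for span the counts were 14 of 24 and 11 of 25, against 13.8% over all genes, and without 38 h they were 10 of 24 and 7 of 25, against 10.7%.

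**Figure D5:**
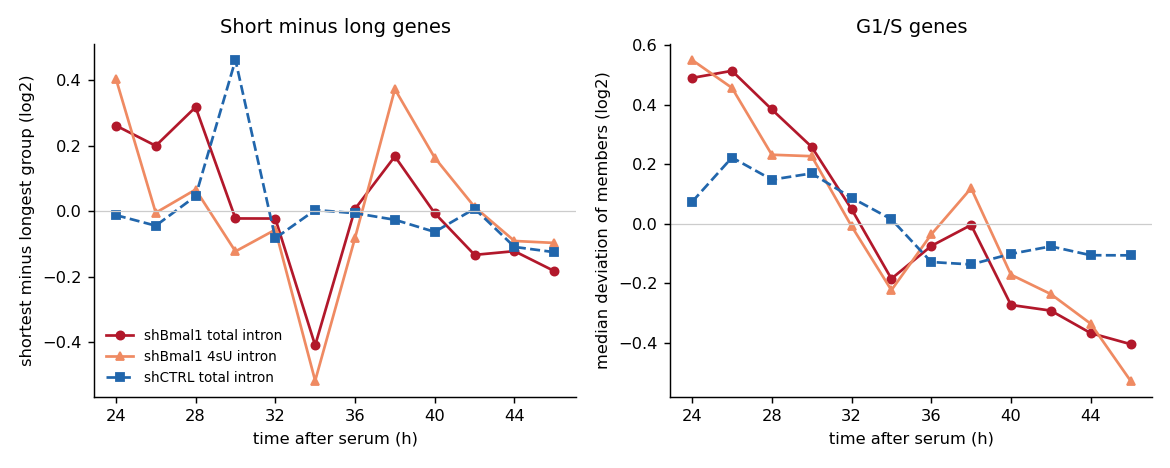
Left, median deviation (log2) of the shortest group of genes minus that of the longest group against time after serum (h), per library. Right, median deviation (log2) of 24 G1/S genes from their own means; shBmal1 total is 0.51 at 26 h and -0.41 at 46 h, with a local high near zero at 38 h, and shCTRL total stays between -0.14 and 0.22.

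Mcm3, a subunit of the replicative helicase (chromosome 1, 20802966 to 20820312), had 1.45, 1.44, 1.60, 1.22, 1.06 and 0.888 RPKM at 24 to 34 h and 0.874, 1.23, 0.893, 0.940, 0.786 and 0.765 RPKM at 36 to 46 h in shBmal1 libraries, against 0.532 to 0.786 RPKM (median 0.618) in shCTRL libraries. The 38-h library stood above both of its neighbours. The amplitude was 0.37 ± 0.07 (SE, n = 12) in shBmal1 and 0.06 in shCTRL. Mcm2, of the same helicase, had its highest value of 1.08 RPKM at 24 h and its lowest of 0.573 RPKM at 44 h in shBmal1, against 0.435 to 0.611 RPKM in shCTRL. Among G2/M genes Cdk1, the kinase that starts mitosis, was highest at 24 h with 3.68 RPKM and lowest at 46 h with 1.69 RPKM in shBmal1. In shCTRL it lay between 1.32 and 2.29 RPKM. Its value of 2.53 RPKM at 38 h in shBmal1 was close to the 2.51 RPKM at 36 h. The other members with the lowest p were Chaf1b and Mcm7 in the G1/S list, and Prc1, Ccnb1 and Aurka in the G2/M list, with amplitudes of 0.32, 0.30, 0.28, 0.34 and 0.34.

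Without a straight line in the fit, genes of the unfolded protein response and the endoplasmic reticulum lay near the background. Of 36 fitted, 7 (19.4%) had an unadjusted p below 0.05, with 3 peaking early and 4 late, and 0 passed adjustment. With a straight line the count was 6 of 36, against 6.92% over all genes, and without 38 h 6 of 36, against 10.7%. It was 0 of 36 in shBmal1 4sU introns (10.8% over all genes) and 1 of 36 in shBmal1 exons (15.3%). In shCTRL introns 1 of 36 had such a p (5.09%), and for the difference between lines 7 of 36 (9.57%). The lowest p in shBmal1 introns was that of Eif2ak3, which encodes the stress sensor kinase PERK. It had 0.263, 0.229, 0.256, 0.305, 0.343 and 0.375 RPKM at 24 to 34 h and 0.320, 0.269, 0.305, 0.350, 0.357 and 0.336 RPKM at 36 to 46 h in shBmal1 libraries, against 0.315 to 0.426 RPKM in shCTRL libraries. Its amplitude was 0.18 ± 0.04 (SE, n = 12), with a peak at 32.4 h and an adjusted p of 0.172 in limma's test. Both highs, at 34 h and at 42 to 44 h, stood above the values at 26 and 38 h. Ern1, the sensor IRE1 that splices Xbp1 RNA, had an amplitude of 0.24 and its highest value at 46 h. Gfpt1 (hexosamine synthesis) peaked at 31.1 h and Atf6b, a relative of the sensor ATF6, at 26.6 h. Xbp1 itself, named for its known role and not by p, had an amplitude of 0.04 ± 0.05 (SE, n = 12) and an adjusted p of 0.823 in limma's test.

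The remaining lists ranged on both sides of 20.1%. Unadjusted p was below 0.05 in 7 of 41 genes of RNA processing (6 early, 1 late), led by Srsf2, a splicing factor, which lay between 23.9 RPKM at 46 h and 42.9 RPKM at 28 h. For oxidative phosphorylation the count was 5 of 22, led by Cox5b, and for TGF-beta and SMAD signalling 6 of 19, with Tgfbr3 among them. Tgfbr3, a TGF-beta co-receptor that spans 183 kb, lay between 0.381 RPKM at 24 h and 0.713 RPKM at 34 h. For p53 targets it was 4 of 18, led by Fas and Bax. Cholesterol and fatty acid synthesis had 3 of 22, led by Fasn, heat shock 1 of 13 (Hspe1), immediate early genes 2 of 17 (Fosl2 and Btg2) and extracellular matrix 1 of 23 (Dcn). In these 8 lists 0 genes passed adjustment in limma's test.

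Clock genes lay near the share over all genes in shBmal1 introns. In the core clock list 2 of 16 genes had an unadjusted p below 0.05, Arntl and Timeless, and among clock outputs 2 of 16, Klf9 and Pnpla2, against 20.1% over all genes, with 0 passing adjustment in either list by limma. In the core clock list the count was 5 of 16 in shBmal1 4sU introns, against 10.8% over all genes, and 4 of 16 in shCTRL introns, against 5.09%. Among clock outputs it was 0 of 16 in each of these. The intron level of Arntl itself had 0.287, 0.317, 0.340, 0.480, 0.5002 and 0.594 RPKM at 24 to 34 h and 0.444, 0.396, 0.443, 0.475, 0.453 and 0.618 RPKM at 36 to 46 h in shBmal1 libraries. In shCTRL libraries it had 0.103, 0.158, 0.288, 0.426, 0.609 and 0.621 RPKM at 24 to 34 h and 0.606, 0.482, 0.422, 0.235, 0.168 and 0.130 RPKM at 36 to 46 h. The shCTRL values made 1 broad wave over the 24 h, and the shBmal1 values stayed within a narrower range. The 12-h amplitude of Arntl was 0.25 ± 0.07 (SE, n = 12) in shBmal1 and 0.20 in shCTRL. By limma its unadjusted p was 0.021 in shBmal1 and 0.0054 in shCTRL, and its adjusted p was 0.195 and 0.851. The adjustment depends on all genes fitted in a line, so the adjusted values do not rank the lines for this gene. Intron RNA is made before the hairpin acts on the finished message, so these intron values do not measure the knockdown.

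The 12-h terms of the lines were compared in 1 fit on all 24 total RNA libraries. Of 10019 genes, 2 (0.02%) differed at an adjusted p below 0.05 in limma's test, and 959 (9.57%) had an unadjusted p below 0.05, or 332 with a straight line for time. The 2 calls did not hold across settings: 0 genes passed on RPKM as deposited, in 9 of 12 fits with a time point left out, and when the lines were set against each other within each time point. The 2 genes were Dna2, a nuclease and helicase of DNA replication and repair, and Acp4, an acid phosphatase. Dna2 was highest at 26 h with 0.169 RPKM and 0.093 RPKM at its lowest in shBmal1, against 0.070 to 0.120 RPKM in shCTRL, and its mean was 174 reads per shBmal1 library (adjusted p = 0.0372). It lay below the limit of 0.1 RPKM in shCTRL, with a mean of 0.099 RPKM, and was not fitted there alone. Acp4 had an amplitude of 0.34 with a peak at 24.2 h in shBmal1 and 0.24 with a peak at 30.5 h in shCTRL (adjusted p = 0.0339). Among the 20 genes with the lowest p, 14 had an unadjusted p of the difference below 0.05, a test that shares the shBmal1 libraries by which they were chosen. In the same fit, which estimates the spread from both lines, the shBmal1 12-h terms of 54 genes reached an adjusted p below 0.05, the lowest being 0.0477. Of the 54, 31 peaked early and 23 late, and 14 of the 20 named genes were among them. The named genes were chosen by the same 12-h terms of the same libraries, so this overlap is no separate evidence. The shBmal1 libraries alone gave 0, so these 54 calls rest on the spread of shCTRL being assumed equal.

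The other RNA measures of the knockdown line were set beside the introns of total RNA. In 4sU introns 0 of 10278 genes passed adjustment in limma's test and 1108 (10.8%) had an unadjusted p below 0.05, and in exons of total RNA the counts were 0 and 1664 (15.3%) of 10907. Of the 2007 genes, 582 of 1999 fitted in 4sU introns (29.1%) had an unadjusted p below 0.05 there too. Among the genes outside the 2007 the share was 6.22%, or 492 genes. The 4sU peak lay within 2 h of the total intron peak in 571 of the 582 and 400 of the 492. Over all genes fitted in both, with any p, this held for 75.1%. For exons the share at an unadjusted p below 0.05 was 624 of 1982 (31.5%), against 11.5% of the other genes. For shCTRL introns it was 122 of 1987 (6.14%), against 4.83% of the other genes. Per the labels' protocols, the pull-down took part of each RNA sample and the rest served as total RNA, and intron and exon reads came from the same library, so these shares do not repeat the time course. With a straight line for time in the fit, the counts at an unadjusted p below 0.05 were 314 in 4sU introns, 288 in exons and 450 in shCTRL introns.

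The 24-h terms of the same fit gave more than the 12-h terms at adjusted p and fewer without adjustment. In shBmal1 introns 58 of 9982 genes (0.581%) had an adjusted p below 0.05 at 24 h by limma, and 1701 (17.0%) an unadjusted p below 0.05. The G1/S list held 4 of the 58 and the G2/M list 6. With a straight line for time in the fit, the 58 became 0. A line has 62.6% of its variance at 24 h, so this fit cannot separate a daily pattern from drift.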

How the data were processed

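The intron and exon tables hold RPKM that the authors computed and deposited; the tools named, per the submitters' processing notes, were Trim Galore and HOMER 4.11.1, with build mm10. The sources used here name no aligner. RPKM was scaled by median ratios within the libraries fitted and taken as log2(RPKM + 0.02) for introns and log2(RPKM + 0.1) for exons, so fold changes of low genes are understated. Genes needed a mean of at least 0.1 RPKM (introns) or 0.5 RPKM (exons). Each gene was fitted with 12-h and 24-h cosine terms in limma 3.58.1 (R 4.3.3, moderated F test with trend and robust settings, Benjamini-Hochberg adjustment), tested on simulated data. Whole reads were recovered for 99.5% of genes within 0.02 reads. Such reads give counting error only, and no count model was run. The named genes were the 20 lowest p at 0.5 RPKM or more, up to 4 of the lowest p in each list, and Arntl. Members, lists and rules were chosen with earlier results of these data known. Random orders, left-out time points, scaling, filters, pseudocounts, a linear term, a fit on both lines and, added after the data were seen, a span correction and a time point block were tried. Spike-ins were not analysed here. A gene that the naming rule picks in a list is not reported here.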

Additional observations from a re-analysis of the deposited data

Results flagged for a closer look

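In total intron RNA, 2 genes had 12-h terms that differed between the shBmal1 and shCTRL lines at an adjusted p below 0.05 in limma's test of the difference. Dna2 had an adjusted p of 0.0372 and Acp4 an adjusted p of 0.0339. The mean levels were 0.125 RPKM for Dna2 and 0.435 RPKM for Acp4 in shBmal1 libraries and 0.099 RPKM and 0.374 RPKM in shCTRL libraries. Over all genes fitted in shBmal1 introns the median was 0.508 RPKM. Each had few reads, with means of 174 for Dna2 and 94.6 for Acp4 per shBmal1 library, against 618 for the median gene. Acp4 overlaps the annotated gene 2410002F23Rik. Neither call held on RPKM as deposited, where the adjusted p was 0.446 for Dna2 and 0.0518 for Acp4, or when the lines were compared within each time point, where it was 0.219 for Dna2 and 0.352 for Acp4. With a time point left out, 9 of 12 fits called 0 genes.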

How the results depend on the processing

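At an adjusted p below 0.05 by limma, the 0 genes with a 12-h pattern in shBmal1 introns became 54 in the fit on both lines and 0 to 1 with a time point left out, and was 0 in the other alternatives tried. The 2007 genes at an unadjusted p below 0.05 became 691 with a linear term, 979 at 0.5 RPKM or more (19.4% of 5043), 1308 after the span correction (against 1898 of the same 9480 genes before it), 589 with span and linear terms, and 1071 to 2644 with a time point left out. A linear term gave 1 gene in shCTRL introns and 1 in shBmal1 4sU introns. The 2 differences between lines became 0 on RPKM as deposited, 1 with a linear term, 0 with the time point as a replicate block (836 at an unadjusted p below 0.05), and 0 to 2 with a time point left out, with 0 in 9 of 12 such fits. The 58 genes at 24 h became 104 on RPKM as deposited, 0 with a linear term, and 2 without 30 h to 230 without 46 h. Causes were not tested. The share of variance at 12 h lay between 23.3% and 28.5%. For the 20 named genes, all 280 recomputed peaks stayed within 3 h. These genes were chosen by their low p in the same libraries, which the refits largely share, so stable peaks were partly fixed by the choice. Their adjusted p in these refits lay between 0.0964 and 0.693 in limma's test. The labels give no replicate numbers, so the lines could be paired by time point only.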
